A study of Rattus norvegicus with 16 samples.

Results

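The factors that carry the ribosome through translation initiation and elongation were followed in rat hepatocytes given SQ1 or pravastatin. Members were all genes whose rat symbol starts with Eif or Eef and a digit, and whose probe stood well above background in 6 or more of the 32 colour channels of 16 microarrays. The rule gave 56 of the 20789 genes tested, with 70 probes, and no gene of these names with a probe was lost to the filter. The genes tested include probes without a gene symbol, each of which was counted as a gene of its own. Of the 56 genes, 43 had 1 probe and 13 had several, in which case the probe with the highest mean signal stands for the gene.

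Primary hepatocytes, liver parenchymal cells freshly put into culture, came from male Sprague Dawley rats and were kept in Williams Medium E. Drugs were added 48 h after plating and stayed on for 48 h: SQ1 at 100 µM or pravastatin at 30 µM. Control cultures received no drug. Each array compared a treated with an untreated culture in 2 colours, A555 and A647. There were 8 arrays per drug, which the series' design text calls biological replicates, with the treated RNA in A555 on 4 and in A647 on the other 4. The labels do not spell out SQ1. In hepatocyte work the name usually stands for squalestatin 1, an inhibitor of squalene synthase, and whether it does so here could not be checked. Pravastatin inhibits HMG-CoA reductase, an earlier enzyme of sterol synthesis. The doses are copied from the labels, could not be checked and differ between the drugs. Arrays of the same number from the 2 drugs carry the same control number in their file names. The comparisons with untreated cells may therefore share their untreated samples. The age of the rats and the number of animals behind the cultures were not given in the sources used here.

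Translation of most mRNAs starts when the eIF4F complex binds the cap and the small ribosomal subunit, loaded with initiator tRNA by eIF2 and held by eIF3, scans to the start codon. Elongation factors then bring in each aminoacyl-tRNA and move the ribosome along. The cell slows the process through kinases that phosphorylate eIF2, through eIF4E binding proteins that take the cap-binding protein away from its scaffold, and through the kinase of the elongation factor eEF2.

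Median foreground signals per array lay between 588 and 663 in A555 and between 790 and 1076 in A647, over median local backgrounds of 306 to 315 and 339 to 348. Precision is limited by the number of arrays. Of the 56 members, 55 were above background in all 32 channels, and Eif5a2 was in 29. The arrays were scanned on 2 days, with 4 arrays of either drug on each, and lay on 4 slides of 4 arrays, none of which held both drugs. Drug and slide therefore cannot be told apart in the difference between the drugs, whereas each change against untreated cells was measured within an array. The RNA came from whole cultures, in which fewer cells of a type and less RNA per cell cannot be told apart. All 10 hepatocyte markers were measured and all 10 fell with SQ1 (median -0.59), while with pravastatin 8 fell and 2 rose (median -0.28). All 10 macrophage markers fell with SQ1 (median -0.45) and with pravastatin (median -0.83). All 8 stellate cell and fibroblast markers fell with SQ1 (median -0.64), and 3 of the 8 with pravastatin (median -0.09). Of 4 endothelial markers 3 fell with SQ1 and 1 with pravastatin, and of 4 cholangiocyte markers 1 rose and 2 fell with SQ1 and 1 rose and 1 fell with pravastatin. The part of these shifts in the results that follow was not tested.

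Start-site sequences are shown for the elongation factors, because 6 of these 7 genes rose together with SQ1 and because mRNAs of the translation machinery often begin with a pyrimidine tract, the feature through which growth signals control their use by ribosomes. Each sequence runs 5′ to 3′ from 10 bases before the RefSeq gene start through the first 20 bases of the gene (GRCr8). Capitals mark a C followed by 5 or more C or T, searched on the gene's own strand only. Windows are shown for 6 of the 7 genes, without Eef1d.
Eef1a1 (chr8:88225050-88225079, minus strand): ttggacgttCTTTTTCgcaacgggtttgcc
Eef1a2 (chr3:188652614-188652643, minus strand): gggtacatctctgcagctgcgtCCTCTCgg
Eef1b2 (chr9:72074081-72074110, plus strand): ggccggtcccggCCCTTTTTCTCCCTCagc
Eef1e1 (chr17:26354237-26354266, plus strand): tccgCCCCCCTaggagctgggccagaagat
Eef1g (chr1:215289805-215289834, plus strand): ctgcggaatcaccatggcggctggggtaag
Eef2 (chr7:9189219-9189248, minus strand): ccgcagccgccgccatcgtcggcgcgcttc
The run begins next to the start in Eef1a1 and Eef1b2, reaches across it from upstream in Eef1e1 and lies downstream of it in Eef1a2. It was found in 4 of these 6 windows and in 14 of the 50 members with a window (28.0%). Counted by promoter entry, it was in 45 of 64 entries of cytosolic ribosomal protein genes (70.3%) and in 20.3% of all 33469 RefSeq promoters. Members were counted by gene, with a run in any of the gene's windows, so the units differ. Among members with a window it was in 7 of the 25 that rose with SQ1 and in 7 of the 25 that did not. A sterol response element of the letters TCACNCCAC, searched on both strands of the 300 bases around the start, was in none of the 50 members and in 1.12% of all promoters. A match is a description of letters, not a site. The RefSeq gene start may not be the first base of the mRNA. A window without a run, such as those of Eef1g and Eef2, therefore does not show that the mRNA lacks one.

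The first comparison asked how the factors responded to SQ1. The picture was a small, mostly upward shift with a few large exceptions: Eif4ebp3 fell 3.89-fold, Eif2ak4 rose 1.67-fold, and no other called change reached 1.5-fold. Of the 56 members, 31 rose and 7 fell, and 18 were not called. A call means a p under 0.05 in limma's moderated test after Benjamini-Hochberg adjustment across the 20789 genes. The share called, 67.9%, stood beside 63.8% of all genes. By direction, 55.4% of members rose, against 32.6% of all genes, and 12.5% fell, against 31.2%. A change of at least 1.5-fold was called for 2 members, against 7.41% of all genes. The 31 include Eif4a1 by its brighter probe, against which its other probe fell. Drugs are named by the labels of the scanner files. The deposited value table carries the labels of the drugs exchanged, and by its labels all values of SQ1 and of pravastatin given here would change places. All changes are log2 treated over untreated, given with the SE of the model and n = 8 arrays per drug. The members' median was 0.11, against 0.01 for all genes, and the median on single arrays ran from 0.05 to 0.17. For 47 of 56 members the estimate was smaller than 0.30 in size. With each array centred on its median instead of loess, 42 rose and 3 fell. Within scan day 1 the count called was 26 (46.4%, beside 50.3% of all genes), within scan day 2 it was 43 (76.8%, beside 62.5%), and with the slide as a random block it was 32 (57.1%, beside 55.0%). Of the 38 called members, 20 went the same way on all 8 arrays.

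**Figure D1:**
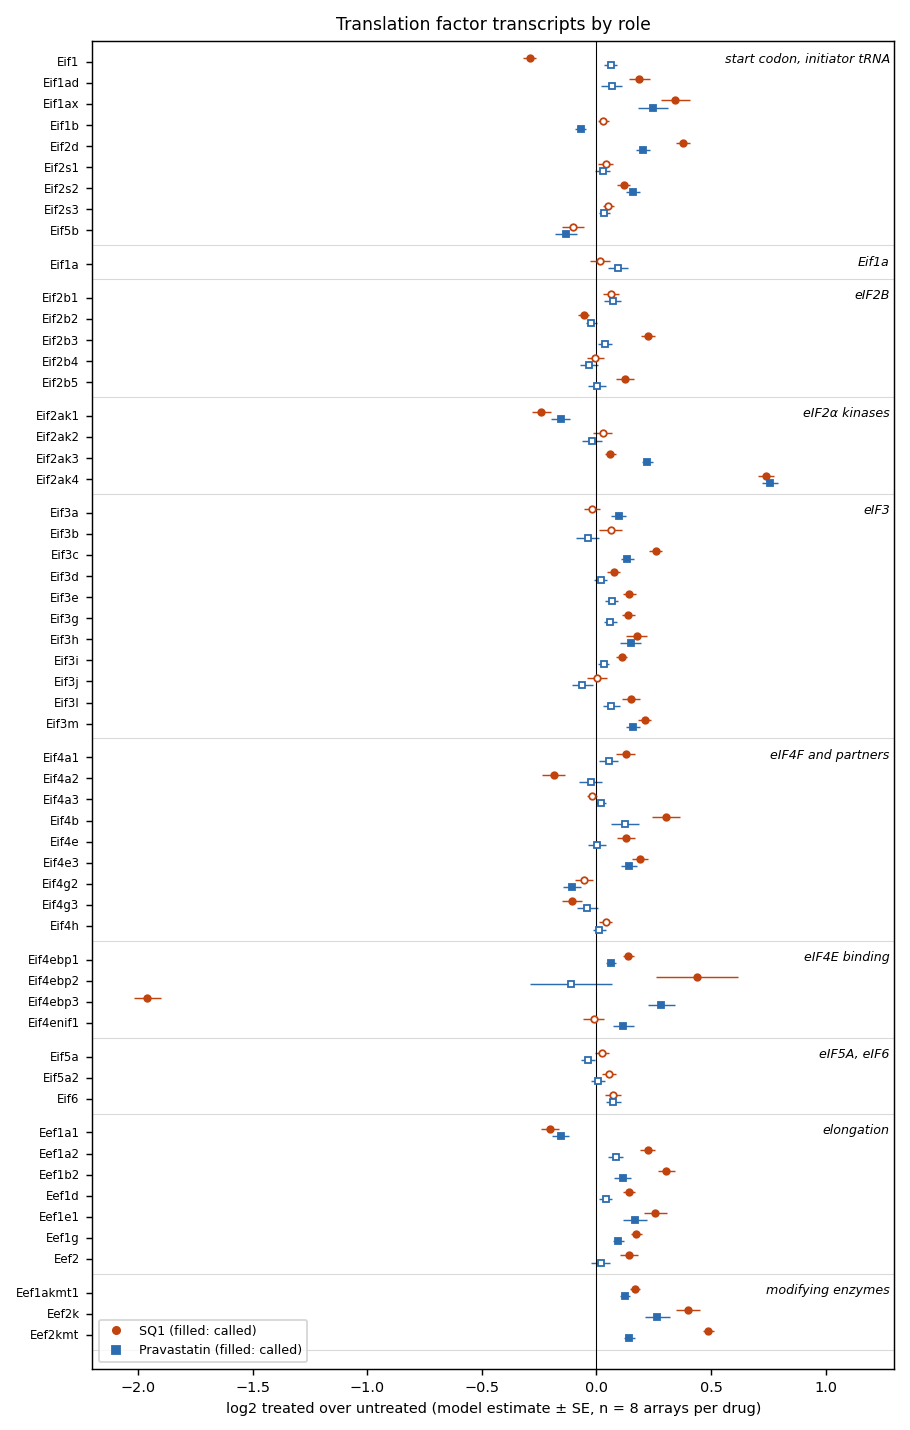
Log2 treated over untreated (horizontal axis) for each of the 56 members, grouped by role, with SQ1 as circles and pravastatin as squares; bars are the SE of the limma model (n = 8 arrays per drug) and filled symbols are called. Eif4ebp3 with SQ1 stands alone at -1.96, and Eif2ak4 lies at 0.74 with SQ1 and 0.76 with pravastatin.

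Pravastatin called fewer members, and Eif2ak4 was again the member with the largest rise. Of the 56, 19 rose and 5 fell, so 42.9% were called beside 38.9% of all genes. By direction, 33.9% rose, against 19.4% of all genes, and 8.93% fell, against 19.6%. Only Eif2ak4 passed 1.5-fold, against 1.93% of all genes. The members' median was 0.06, and the median on single arrays ran from 0.02 to 0.10. With median centring 24 rose and 1 fell. Within scan day 1 the count called was 8 (14.3%, beside 19.3% of all genes), within scan day 2 it was 27 (48.2%, beside 42.6%), and with the slide as a random block it was 16 (28.6%, beside 28.4%). Of the 24 called members, 9 went the same way on all 8 arrays.

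Between the drugs, 10 members differed, 7 of them higher and 3 lower with SQ1. That is 17.9% of the members, beside 37.9% of all genes, and only Eif4ebp3 differed by at least 1.5-fold, against 4.18% of all genes. Residuals of same-numbered arrays of the drugs correlated at 0.14 to 0.63, but for 4 of 8 numbers another number correlated more. With the replicate number as a random block the count was 24 (42.9%, beside 47.6% of all genes). As a fixed block it was 25 (44.6%, beside 47.5%), and each block included all 10. The blocks added Eef1d, Eef1g, Eef2, Eif1ad, Eif2b5, Eif3a, Eif3e, Eif3i, Eif4a2, Eif4b, Eif4e, Eif4ebp2 and Eif4enif1 in either form, Eif4ebp1 only as random, and Eef1e1 and Eif2ak1 only as fixed. With arrays scaled to 1 spread, 1 member was higher and 3 were lower with SQ1, and with median centring 9 were higher and 2 lower. Within scan day 1 the count was 4 (7.14%, beside 23.3% of all genes), within scan day 2 it was 16 (28.6%, beside 37.3%), and with the slide as a random block it was 7 (12.5%, beside 27.3%).

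**Figure D2:**
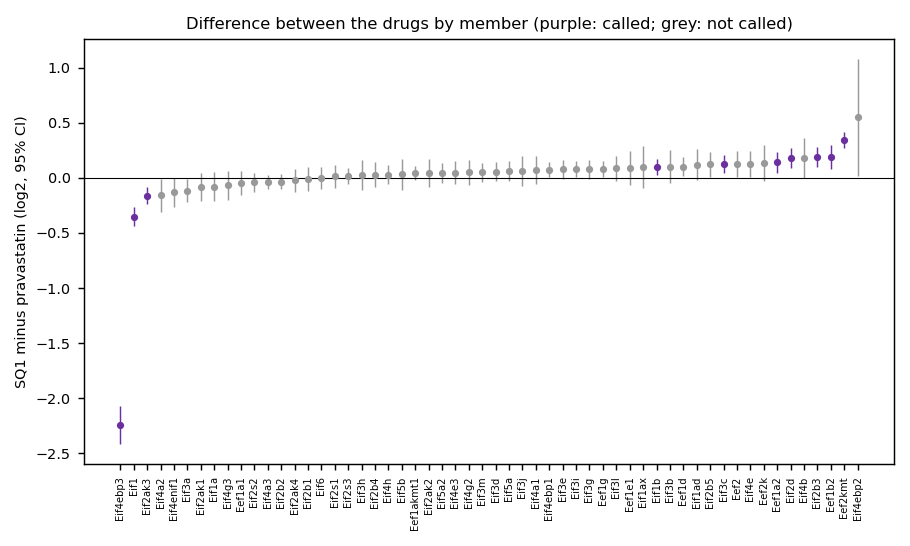
Difference of SQ1 minus pravastatin (vertical axis, log2, with the 95% confidence interval of the model without a replicate term) for the 56 members in order of size, with called members in purple. Eif4ebp3 lies at -2.24, Eif1 at -0.35 and Eef2kmt at 0.34, while the interval of Eif4ebp2 runs from 0.02 to 1.08.

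Factors of start codon recognition and initiator tRNA delivery numbered 9, of which 4 rose and 1 fell with SQ1, and 3 rose and 2 fell with pravastatin. Beside this and the later group counts, 32.6% of all genes rose and 31.2% fell with SQ1. With pravastatin 19.4% of all genes rose and 19.6% fell. Eif1, which keeps the scanning ribosome from accepting a wrong start codon, lay between -0.39 and -0.19 on the 8 SQ1 arrays (median -0.30) and between -0.04 and 0.19 on the pravastatin arrays (median 0.06). Every SQ1 array was below every pravastatin array. Eif1 fell by 0.29 ± 0.03 with SQ1 (adjusted p = 7.36e-08), had an estimate of 0.06 ± 0.03 with pravastatin (adjusted p = 0.105), and differed between the drugs by -0.35 ± 0.04 (adjusted p = 1.91e-06). Its paralogue Eif1b had an estimate of 0.03 ± 0.02 with SQ1 and fell by 0.07 ± 0.02 with pravastatin, and this difference of 0.10 ± 0.03 was called (adjusted p = 0.0274). The pravastatin call of Eif1b was lost without pravastatin replicate 3, 4, 7 or 8 (adjusted p up to 0.0879), and the difference without these or SQ1 replicate 1 or 8 (up to 0.0580).

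Eif2d, a factor that can place tRNA on the ribosome without eIF2, rose with both drugs. Its values ran from 0.14 to 0.51 with SQ1 (median 0.39) and from -0.02 to 0.33 with pravastatin (median 0.23), so the arrays of the drugs overlapped and 1 pravastatin array was below 0. The change was 0.38 ± 0.03 with SQ1 (adjusted p = 4.53e-09) and 0.20 ± 0.03 with pravastatin (adjusted p = 4.28e-05). The difference of 0.18 ± 0.04 (adjusted p = 0.00339) was -0.04 with arrays scaled to 1 spread (adjusted p = 0.851) and not called within scan day 1 (adjusted p = 0.120).

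Eif1ax, the X-linked copy of eIF1A, which helps load initiator tRNA, ran from -0.02 to 0.59 with SQ1 (median 0.38) and from 0.05 to 0.56 with pravastatin (median 0.24). The drugs overlapped almost entirely, and 1 SQ1 array was below 0. It rose by 0.34 ± 0.06 with SQ1 (adjusted p = 0.000141) and by 0.25 ± 0.06 with pravastatin (adjusted p = 0.00552). Neither call stood on scan day 1 alone (0.16 and adjusted p = 0.0662 with SQ1, 0.16 and 0.108 with pravastatin). The second probe of Eif1ax was called with SQ1 at 0.34 and not with pravastatin at 0.13 (adjusted p = 0.0549). On that probe the difference between the drugs was called at 0.21 (adjusted p = 0.0248). The related Eif1a was not called with either drug (0.02 ± 0.04 and 0.10 ± 0.04), except with pravastatin under the fixed replicate block (adjusted p = 0.0444). Here and below, that block leaves the spread between replicate numbers out of the error of changes against untreated cells.

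The eIF2 complex itself, which carries initiator tRNA, moved little. Its beta subunit Eif2s2 ran from -0.06 to 0.32 with SQ1 (median 0.13) and from -0.06 to 0.34 with pravastatin (median 0.18). On all 4 arrays of either drug with treated RNA in A555 it was above 0, whereas the opposite orientation gave means of -0.01 and 0.05. It rose by 0.12 ± 0.03 (adjusted p = 0.00186) and by 0.16 ± 0.03 (adjusted p = 0.000307). The alpha subunit Eif2s1 (0.04 ± 0.03 and 0.03 ± 0.03) and the gamma subunit Eif2s3 (0.05 ± 0.02 and 0.03 ± 0.02) were not called with either drug. Eif2s3 was called with SQ1 under the fixed replicate block (adjusted p = 0.0361), and its second probe was called with SQ1 at 0.13. Eif1ad, a protein with an eIF1A domain, rose by 0.19 ± 0.05 with SQ1, and Eif5b, the GTPase that joins the ribosomal subunits, fell by 0.13 ± 0.05 with pravastatin. That call was lost without pravastatin replicate 1, 2, 3 or 7 (adjusted p up to 0.113). It was also lost with median centring (0.0727), with the slide as a random block (0.132) and within either scan day (0.132 and 0.106).

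Of the 5 subunits of eIF2B, which recharges eIF2 with GTP, 2 rose and 1 fell with SQ1 and none was called with pravastatin. The catalytic subunits rose with SQ1: Eif2b3 by 0.22 ± 0.03 (adjusted p = 3.65e-06) and Eif2b5 by 0.12 ± 0.04 (adjusted p = 0.00889). Eif2b3 was above 0 on all 8 SQ1 arrays, from 0.02 to 0.39 (median 0.25), and from -0.18 to 0.21 with pravastatin (median 0.06). The ranges overlapped, and the difference of 0.19 ± 0.04 was called (adjusted p = 0.00204), but not with arrays scaled to 1 spread (adjusted p = 0.0784). Of the regulatory subunits, Eif2b2 fell by 0.06 ± 0.02 with SQ1, with 0.06 under median centring (adjusted p = 0.260), and was not called without SQ1 replicate 2, 3, 4 or 5 (up to 0.107). Nor was it called with the processed signals of the Agilent software (adjusted p = 0.409) or with arrays scaled to 1 spread (0.430). The call was also lost without the dye term (0.173), with the slide as a random block (0.132) and within either scan day (0.119 and 0.281). Eif2b1 (0.06 ± 0.04) and Eif2b4 (-0.01 ± 0.04) were not called, except Eif2b1 under the fixed replicate block (adjusted p = 0.0452 with SQ1, 0.0420 with pravastatin).

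The 4 kinases of eIF2 alpha each answer a different stress and did not move together. Eif2ak4, also called GCN2, senses uncharged tRNA. Its values lay between 0.52 and 0.94 on the SQ1 arrays (median 0.70) and between 0.56 and 0.90 on the pravastatin arrays (median 0.81). All 16 arrays were far above 0, and the drugs overlapped. The rise was 0.74 ± 0.03 with SQ1 (adjusted p = 2.77e-12) and 0.76 ± 0.03 with pravastatin (adjusted p = 8.40e-12), with a difference of -0.02 and a 95% interval of -0.12 to 0.08. With SQ1 it was 0.83 on scan day 1 and 0.65 on scan day 2, and the call with SQ1 was not made with arrays scaled to 1 spread (adjusted p = 0.0687). Srp14, the next gene on the chromosome, fell by 0.09 ± 0.02 with SQ1 and was at 0.00 ± 0.02 with pravastatin.

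Eif2ak3, or PERK, the kinase of the endoplasmic reticulum, rose more with pravastatin. It ran from -0.03 to 0.17 with SQ1 (median 0.05) and from 0.08 to 0.29 with pravastatin (median 0.25). All 8 pravastatin arrays and 6 of the 8 SQ1 arrays were above 0, with overlap between the drugs. The change was 0.06 ± 0.03 with SQ1 (adjusted p = 0.0445, 0.0630 with the random replicate block) and 0.22 ± 0.03 with pravastatin (adjusted p = 1.86e-06). The SQ1 call was lost without any 1 of 10 arrays: SQ1 replicates 1, 2, 4, 5 and 6 and pravastatin replicates 2, 3, 4, 6 and 8 (adjusted p up to 0.145). The difference of -0.16 ± 0.04 (adjusted p = 0.00149) was not called with median centring (adjusted p = 0.10) or within scan day 1 (adjusted p = 0.254).

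Eif2ak1, or HRI, the kinase that senses haem, fell with both drugs. All 8 SQ1 arrays were below 0, from -0.38 to -0.08 (median -0.24), as were 6 of the 8 pravastatin arrays, from -0.31 to 0.04 (median -0.18). It fell by 0.24 ± 0.04 (adjusted p = 7.84e-05) and by 0.16 ± 0.04 (adjusted p = 0.00705). With pravastatin the value was -0.03 on scan day 1 (adjusted p = 0.615) and -0.28 on scan day 2. Eif2ak2, or PKR, the kinase that senses double-stranded RNA, was not called (0.03 ± 0.04 and -0.02 ± 0.04).

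**Figure D3:**
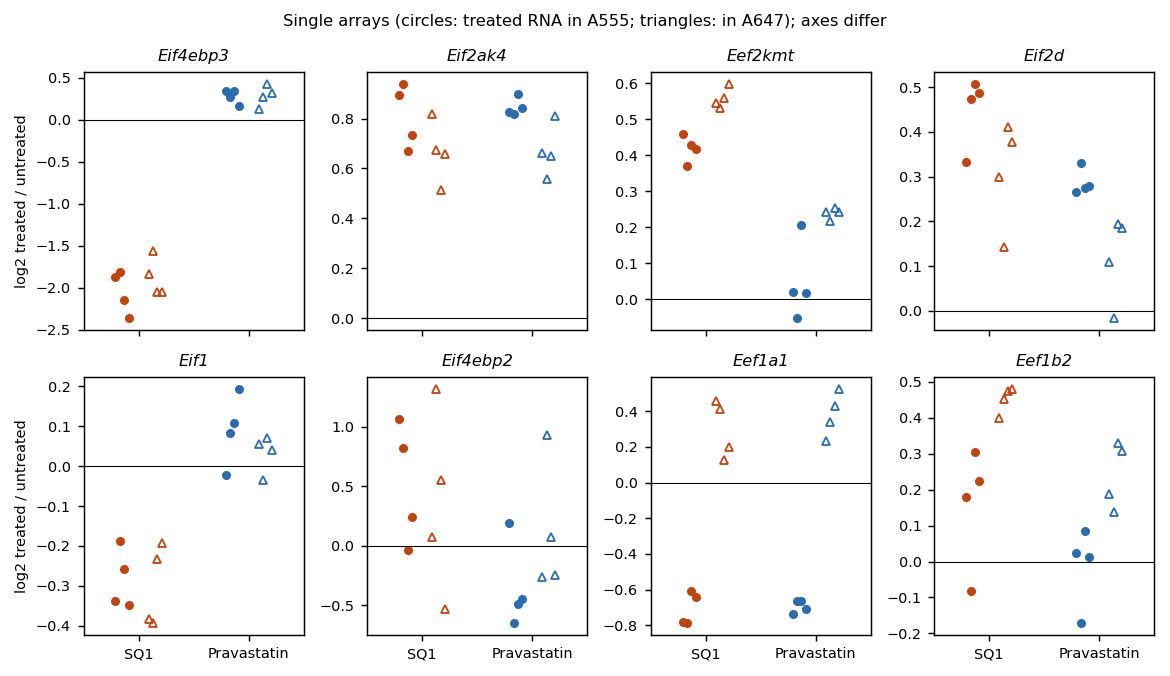
Log2 treated over untreated on each of the 8 arrays per drug for 8 members (a panel each, vertical axes differ), with circles for treated RNA in A555 and triangles for treated RNA in A647. For Eif4ebp3, Eif1 and Eef2kmt the drugs do not overlap, Eif4ebp2 scatters from -0.53 to 1.32 with SQ1, and Eef1a1 changes sign with the dye orientation.

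Of the 11 subunits of eIF3, the scaffold that holds the small ribosomal subunit, 8 rose and none fell with SQ1, and 4 rose and none fell with pravastatin. The estimates with SQ1 ran from -0.02 to 0.26 with a median of 0.14, and with pravastatin from -0.06 to 0.16 with a median of 0.07. Eif3c, a core subunit, lay between 0.21 and 0.35 on the SQ1 arrays (median 0.25) and between -0.04 and 0.23 on the pravastatin arrays (median 0.15). All SQ1 arrays were above 0 and the ranges overlapped only narrowly. It rose by 0.26 ± 0.03 (adjusted p = 2.17e-07) and by 0.13 ± 0.03 (adjusted p = 0.000897), and the difference of 0.12 ± 0.04 was called (adjusted p = 0.0187). That difference was not called with arrays scaled to 1 spread (adjusted p = 0.402) or with the slide as a random block (0.0877). Nor was it called within scan day 1 (0.0512) or scan day 2 (0.236). The pravastatin call was lost within scan day 1 (adjusted p = 0.182).

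Eif3m rose with both drugs. It ran from 0.01 to 0.43 with SQ1 (median 0.20) and from 0.06 to 0.33 with pravastatin (median 0.12), and all 16 arrays were above 0. The changes were 0.21 ± 0.03 (adjusted p = 3.85e-06) and 0.16 ± 0.03 (adjusted p = 0.000249), with an interval of the difference from -0.03 to 0.14. Eif3h rose by 0.18 ± 0.04 and by 0.15 ± 0.04 (adjusted p = 0.00222 and 0.0134), with all 16 arrays above 0. Its pravastatin arrays ran from 0.02 to 0.43 (median 0.14), its SQ1 arrays from 0.01 to 0.46 (median 0.12), and the pravastatin call was not made with the slide as a random block (adjusted p = 0.0534) or with arrays scaled to 1 spread (adjusted p = 0.0860). The second probe of Eif3h was called with SQ1 at 0.11 and not with pravastatin at 0.06 (adjusted p = 0.181).

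The other eIF3 subunits changed less. Eif3l (0.15 ± 0.04), Eif3e (0.14 ± 0.03), Eif3g (0.14 ± 0.03), Eif3i (0.11 ± 0.02) and Eif3d (0.08 ± 0.03) rose with SQ1 and were not called with pravastatin. The fixed replicate block called Eif3e and Eif3l with pravastatin (adjusted p = 0.0132 and 0.0481), and Eif3d lost its SQ1 call without SQ1 replicate 3, 4, 7 or 8 (up to 0.0952). Eif3a, the largest subunit, rose by 0.10 ± 0.03 with pravastatin and had -0.02 ± 0.03 with SQ1. Its call was lost without pravastatin replicate 1, 2, 6, 7 or 8 (adjusted p up to 0.118). It was also lost without the dye term (0.147), with arrays scaled to 1 spread (0.127), with the slide as a random block (0.112) and within either scan day (0.0567 and 0.271). Eif3b and Eif3j were not called with either drug.

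Among the 9 genes of eIF4F and its partners, which bind the cap and unwind the leader, 4 rose and 2 fell with SQ1, and 1 rose and 1 fell with pravastatin. The 4 count Eif4a1 by its brighter probe. Eif4b, which stimulates the helicase eIF4A, ran from 0.07 to 0.67 on the SQ1 arrays (median 0.29) and from -0.01 to 0.57 on the pravastatin arrays (median 0.05). All 8 SQ1 arrays were above 0, and on the pravastatin side replicate 1 alone held the value of 0.57. Eif4b rose by 0.30 ± 0.06 with SQ1 (adjusted p = 0.000229, 0.396 with arrays scaled to 1 spread) and had 0.13 ± 0.06 with pravastatin (adjusted p = 0.113, 0.00227 with the fixed replicate block).

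The cap-binding proteins Eif4e (0.13 ± 0.04) and Eif4e3 (0.19 ± 0.04) rose with SQ1, and Eif4e3 rose by 0.14 ± 0.04 with pravastatin. On its brighter probe, which stands for the gene, Eif4e was not called with pravastatin (0.0036). Its dimmer probe was called with SQ1 (0.28), with pravastatin (0.12, adjusted p = 0.0125) and between the drugs (0.16, adjusted p = 0.0144). Within scan day 1 the SQ1 call of Eif4e was lost (0.04, adjusted p = 0.473). The second, dimmer probe of Eif4e3 was not called with SQ1 (0.07, adjusted p = 0.417) or pravastatin (-0.0006, adjusted p = 0.995). The pravastatin call of Eif4e3 was lost with the mean of its probes (0.07, adjusted p = 0.211) and within scan day 1 (adjusted p = 0.210). Of the helicases, Eif4a2 fell by 0.19 ± 0.05 with SQ1, with 0.01 under median centring (adjusted p = 0.910). Eif4a1 has 2 probes that were called in opposite directions with SQ1: the brighter, which stands for the gene, rose by 0.13 ± 0.04 and the other fell by 0.22 ± 0.03, and their mean gave -0.05 (adjusted p = 0.266). Without SQ1 replicate 4 the brighter probe was not called (adjusted p = 0.0537). No direction is therefore given for Eif4a1. Eif4a3, a part of the exon junction complex, and Eif4h, a relative of Eif4b, were not called. Of the scaffolds, Eif4g3 fell by 0.11 ± 0.04 with SQ1, and Eif4g2, which lacks the eIF4E-binding part, fell by 0.11 ± 0.04 with pravastatin. Of the 3 probes of Eif4g2, 1 was called with SQ1 and 2 with pravastatin. With either drug Eif4g2 was below 0 on the arrays with treated RNA in A555 and above 0 on those in A647. Its pravastatin call was lost under several alternatives. Among them were the model without the dye term (adjusted p = 0.445) and median centring (-0.01, adjusted p = 0.928). The call of Eif4g3 was lost without SQ1 replicate 1, 2, 3, 6 or 7 or pravastatin replicate 3, 5, 6 or 8 (adjusted p up to 0.172), and that of Eif4g2 without pravastatin replicate 1, 2, 4 or 5 (up to 0.119). Other alternatives cost Eif4g3 its call too, among them median centring (-0.02, adjusted p = 0.740) and the processed signals of the Agilent software (0.153). So did arrays scaled to 1 spread (0.412), the slide as a random block (0.149) and either scan day alone (0.0924 and 0.302).

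Across the 13 members with several probes, the call differed between probes in 3 with SQ1, in 5 with pravastatin and in 4 between the drugs, and Eif4a1 with SQ1 was the only opposite pair of calls. Between the drugs these were Eif1ax (0.21), Eif4a1 (-0.23), Eif4b (0.21) and Eif4e (0.16), each called only on its dimmer probe. The count of members that differ between the drugs thus depends on the probe chosen.

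**Figure D4:**
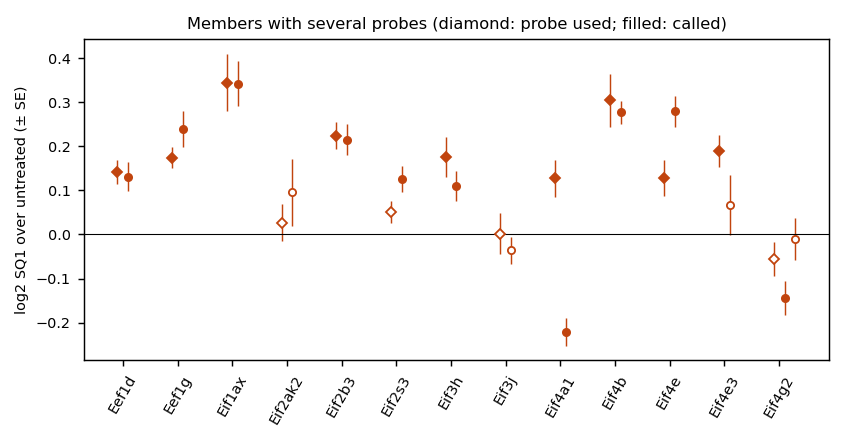
Log2 SQ1 over untreated (vertical axis, ± SE of the model, n = 8 arrays) for every probe of the 13 members with several probes, with a diamond for the probe that stands for the gene and filled symbols for called probes. The probes of Eif4a1 lie on opposite sides of 0, at 0.13 and -0.22.

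The 4 proteins that bind eIF4E and compete with its scaffold or carry it held the strongest contrast of the set. Eif4ebp3 lay between -2.36 and -1.56 on the 8 SQ1 arrays (median -1.96) and between 0.13 and 0.43 on the 8 pravastatin arrays (median 0.29). All SQ1 arrays were far below 0 and all pravastatin arrays above it, in both dye orientations. The fall with SQ1 was -1.96 ± 0.06 (adjusted p = 5.61e-15), the rise with pravastatin 0.28 ± 0.06 (adjusted p = 0.000910) and the difference -2.24 ± 0.08 (adjusted p = 1.03e-12). With SQ1 it was -1.77 on scan day 1 and -2.15 on scan day 2. Ankhd1 lies beside Eif4ebp3 in the rat genome, and joined transcripts of these neighbours are known in humans. Its own probe had 0.03 ± 0.04 with SQ1 and 0.08 ± 0.04 with pravastatin, and neither was called.

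Eif4ebp1, the best studied of these inhibitors, rose slightly, by 0.14 ± 0.02 with SQ1 (adjusted p = 3.19e-05) and by 0.06 ± 0.02 with pravastatin (adjusted p = 0.0338, 0.0546 with the random replicate block). The pravastatin call of Eif4ebp1 was lost without pravastatin replicate 1, 3, 4, 6, 7 or 8 (adjusted p up to 0.122).

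Eif4ebp2 scattered more than the other members described here: its SQ1 arrays ran from -0.53 to 1.32 (median 0.40) and its pravastatin arrays from -0.65 to 0.93 (median -0.25). Arrays of both drugs lay on either side of 0. Its estimate of 0.44 ± 0.18 with SQ1 was called (adjusted p = 0.0394), but the value was 0.82 on scan day 1 and 0.06 on scan day 2. The call was lost without SQ1 replicate 1 (adjusted p = 0.128), 2 (0.106), 4 (0.0537), 6 (0.138) or 7 (0.0685). With pravastatin it had -0.11 ± 0.18, and the difference of 0.55 ± 0.25 was called with the replicate blocks (adjusted p = 0.0192 random, 0.00490 fixed) but not without (adjusted p = 0.0974). Eif4enif1, which carries eIF4E into the nucleus, rose by 0.12 ± 0.04 with pravastatin. Its call was lost without pravastatin replicate 1, 2, 3, 6, 7 or 8 or SQ1 replicate 3, 6 or 7 (adjusted p up to 0.154).

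Eif5a and Eif5a2, which help the ribosome through difficult peptide bonds, and Eif6, which keeps the large ribosomal subunit free, were not called with either drug, and their estimates with SQ1 ran from 0.02 to 0.07. With the fixed replicate block Eif6 was called with SQ1 (adjusted p = 0.00597) and pravastatin (adjusted p = 0.00878). These p-values leave out the spread between replicate numbers and so do not measure the spread between all arrays of a drug.

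Of the 7 elongation factors, for 6 of which a start window is printed above, 6 rose and 1 fell with SQ1, and 3 rose and 1 fell with pravastatin. The median was 0.17 with SQ1 and 0.08 with pravastatin. Eef1b2, a subunit of the exchange factor that recharges eEF1A, ran from -0.08 to 0.48 with SQ1 (median 0.35) and from -0.17 to 0.33 with pravastatin (median 0.11). With each drug 7 of 8 arrays were above 0, and the arrays with treated RNA in A647 were the higher ones. It rose by 0.30 ± 0.04 (adjusted p = 9.23e-07) and by 0.11 ± 0.04 (adjusted p = 0.0197), and the difference of 0.19 ± 0.05 (adjusted p = 0.00749) was not called within scan day 1 (adjusted p = 0.0790), without the dye term (adjusted p = 0.0897) or with arrays scaled to 1 spread (adjusted p = 0.222). The pravastatin call of Eef1b2 was lost without pravastatin replicate 3, 7 or 8 (adjusted p up to 0.0650). The other exchange subunits followed with SQ1: Eef1g rose by 0.17 ± 0.02 and Eef1d by 0.14 ± 0.03. With pravastatin Eef1g rose by 0.09 ± 0.02 and Eef1d had 0.04 ± 0.03.

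Eef1e1, a small relative that sits in the multi-synthetase complex, ran from 0.11 to 0.49 with SQ1 (median 0.21) and from -0.07 to 0.39 with pravastatin (median 0.20). All SQ1 arrays and 7 pravastatin arrays were above 0. It rose by 0.26 ± 0.05 (adjusted p = 0.000295) and by 0.17 ± 0.05 (adjusted p = 0.0170), and the pravastatin call was lost within scan day 1 (0.04, adjusted p = 0.545) and without pravastatin replicate 3 (adjusted p = 0.0654), 4 (0.0506) or 8 (0.0513).

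The 2 forms of eEF1A, the carrier of aminoacyl-tRNA, were called in opposite directions with SQ1 in the model with the dye term. Eef1a2, the form typical of muscle and nerve, was above 0 on all 8 SQ1 arrays, from 0.08 to 0.31 (median 0.26), and on 6 pravastatin arrays, from -0.01 to 0.28 (median 0.06). It rose by 0.22 ± 0.03 with SQ1 (adjusted p = 9.73e-06) and had 0.08 ± 0.03 with pravastatin (adjusted p = 0.0522, 0.0146 with the fixed replicate block). Its difference between the drugs, 0.14 ± 0.05 (adjusted p = 0.0245), was lost under several alternatives, among them either scan day alone (adjusted p = 0.121 and 0.0778), and without pravastatin replicate 1 (0.0504), 5 (0.0527) or 7 (0.0502) or SQ1 replicate 4 (0.050).

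The ubiquitous form Eef1a1 gave values that depended on the dye. With treated RNA in A555 it lay between -0.79 and -0.61 (SQ1) and between -0.74 and -0.66 (pravastatin), and with treated RNA in A647 between 0.12 and 0.46 and between 0.23 and 0.53. The orientations did not overlap, and the medians over 8 arrays were -0.24 and -0.22. The model, which holds a dye term, gave a fall of 0.20 ± 0.04 (adjusted p = 0.000120) and of 0.16 ± 0.04 (adjusted p = 0.00292). Without the dye term the SQ1 call was lost (adjusted p = 0.341), as it was with median centring (-0.01, adjusted p = 0.912) and with arrays scaled to 1 spread (0.626). Without it the pravastatin call was lost too (adjusted p = 0.558), as it was with median centring (0.256), within scan day 2 (0.134) and with arrays scaled to 1 spread (0.119). Eef1a1 also has many processed copies in mammalian genomes, and no probe sequence was used here to tell them apart. Over all members, the mean of the 4 arrays of each orientation differed in sign for 14 of 56 with SQ1 (3 of the 38 called) and for 22 with pravastatin (5 of the 24 called). Eef2, which moves the ribosome along the mRNA, rose by 0.14 ± 0.04 with SQ1 (adjusted p = 0.00510) and had 0.02 ± 0.04 with pravastatin. The SQ1 call of Eef2 was lost within scan day 1 (0.06, adjusted p = 0.257) and with arrays scaled to 1 spread (0.123).

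All 3 enzymes that modify elongation factors rose with both drugs. Eef2kmt, which methylates eEF2, lay between 0.37 and 0.60 with SQ1 (median 0.50) and between -0.05 and 0.25 with pravastatin (median 0.21). Every SQ1 array was above every pravastatin array. It rose by 0.49 ± 0.02 (adjusted p = 6.67e-12) and by 0.14 ± 0.02 (adjusted p = 0.000146), and the difference was 0.34 ± 0.03 (adjusted p = 3.55e-07). Eef2k, the kinase that stops eEF2, ran from 0.14 to 0.69 with SQ1 (median 0.40) and from 0.01 to 0.49 with pravastatin (median 0.25). All 16 arrays were above 0, with wide overlap. It rose by 0.40 ± 0.05 (adjusted p = 3.44e-06) and by 0.26 ± 0.05 (adjusted p = 0.000755, 0.0681 within scan day 1), with an interval of the difference from -0.03 to 0.30. Eef1akmt1, a methyltransferase of eEF1A, rose by 0.17 ± 0.02 and by 0.13 ± 0.02.

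Other lists of the translation machinery stood beside the factors as follows. For all genes, 32.6% rose and 31.2% fell with SQ1, and 19.4% rose and 19.6% fell with pravastatin. Of 75 cytosolic ribosomal protein genes, 39 rose and 4 fell with SQ1 (median 0.09), and 39 rose and 2 fell with pravastatin (median 0.08). Of 21 cytosolic aminoacyl-tRNA synthetase genes, 13 rose and 2 fell with SQ1 (median 0.16), and 7 rose and 1 fell with pravastatin (median 0.06). Wars1, which charges tryptophan tRNA, rose by 0.44 ± 0.05 with SQ1. Of 16 factors of termination, recycling, the poly(A) tail and reinitiation, 10 rose and 5 fell with SQ1, and 4 rose and 3 fell with pravastatin. Pdcd4, an inhibitor of eIF4A, fell by 0.48 ± 0.05 with SQ1 and by 0.24 ± 0.05 with pravastatin, and Denr, a reinitiation factor, rose by 0.36 ± 0.04 with SQ1. Of 8 mitochondrial translation factors, 1 rose with SQ1 and 1 fell with pravastatin.

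Upstream of the factors, 7 of 17 kinases, phosphatases and regulators rose and 5 fell with SQ1, and 1 rose and 4 fell with pravastatin. Beside this list and the next, 32.6% of all genes rose and 31.2% fell with SQ1. With pravastatin the shares of all genes were 19.4% and 19.6%. Dnajc3, an inhibitor of eIF2 kinases, fell by 0.42 ± 0.03 with SQ1 and by 0.33 ± 0.03 with pravastatin. Ppp1r15a, which directs a phosphatase to eIF2, rose by 0.40 ± 0.05 with SQ1. Transcripts induced through ATF4, the transcription factor made when eIF2 is phosphorylated, went both ways: 11 of 18 rose and 5 fell with SQ1 (median 0.17), and 4 rose and 5 fell with pravastatin (median 0.00). Slc3a2, an amino acid transporter chain, rose by 1.04 ± 0.06 with SQ1, while Nupr1, a stress-induced regulator, fell by 0.84 ± 0.03 with SQ1 and by 0.44 ± 0.03 with pravastatin. Phosphorylation of eIF2 and translation itself were not measured by these arrays.

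**Figure D5:**
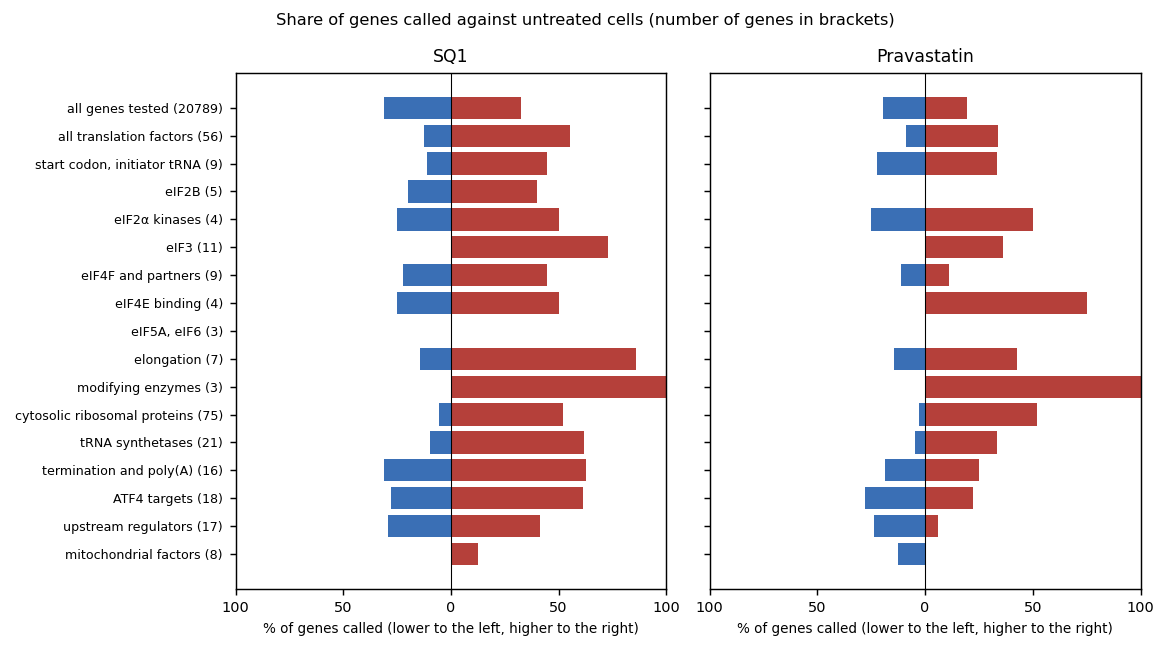
Percent of genes called higher (red, to the right) and lower (blue, to the left) against untreated cells with SQ1 and with pravastatin, for all genes tested, the translation factors, their role groups and related lists, with the number of genes in brackets. The eIF3 subunits show no lower call with either drug, and all 3 modifying enzymes are called higher with both.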

How the data were processed

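Scanner files of 16 two-colour Agilent arrays were used. The authors measured spots with Agilent Feature Extraction, per the submitters' processing notes. Per the file headers it was version 10.7.1.1, with the build rn4. The deposited values are median foreground and local background intensity per spot in each colour; mean signals were not used here. The deposited value table holds log2 ratios, and each of its columns follows the same-numbered scanner file of the other drug (r 0.999 to 1.00, against 0.450 to 0.562 with its own label). Drugs and dyes follow the labels of the scanner files. The files do not settle which labelling is right: if the table's column labels hold, every value given here for SQ1 is pravastatin's and the reverse. As an alternative the table was used with each column given to the scanner file it matches, so that it does not test this. Its column medians ran from -0.06 to 0.10, and its centring method is not given in the sources used here.

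Signals were corrected with normexp (offset 50) and normalized by loess within each array in limma 3.58.1 (R 4.3.3), with control spots at weight 0. Ratios were turned to treated over untreated. Probes were named through RefSeq accessions in the tables of assembly GRCr8: 17998 of 30367 probes had a symbol and 12369 had none. In the shares and counts of all genes, a probe without a symbol that passed the filter stands as a gene. A member's probe counts as well above background in a channel when its flagged spots are no fewer than its unflagged ones. The model fitted all 16 arrays with a dye term beside the terms of SQ1 and pravastatin, and p-values were adjusted by Benjamini-Hochberg over 20789 genes. Tests were two-sided. The fit was checked on simulated data. P-values measure the spread between these arrays. An exception is the fixed replicate block, which takes the spread between replicate numbers out of the error. Its p-values against untreated cells measure only what is left between same-numbered arrays.

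Single-array values are given for the 12 called members of largest change with each drug and the 8 of largest difference between drugs, and up to 3 called genes of largest change per related list may be named. Members and lists were chosen with earlier results of these data known. Residuals of same-numbered arrays of the 2 drugs correlated at 0.14 to 0.63, and for 4 of 8 numbers another number correlated more. From the shared control number in the file names they were taken as paired in the replicate blocks, but not in the main model. Start windows come from RefSeq. The alternatives are given in the closing section.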

Additional observations from a re-analysis of the deposited data

Results flagged for a closer look

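On 3 occasions 1 array lay far from the other 7 of its drug, out of 114 groups of 8 arrays examined, of which chance picks about 1 in 20. Pravastatin replicate 1 had 0.43 for Eif3h, against 0.02 to 0.21 on the other arrays, and 0.57 for Eif4b, against -0.01 to 0.18. Pravastatin replicate 2 had -0.14 for Eif3d, against -0.01 to 0.09.

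The change against untreated cells differed between the scan days for 8 of 56 members with SQ1, beside 14.7% of all genes, and for 2 with pravastatin, beside 4.96% (limma, interaction of drug and scan day, adjusted over all genes). Scan day 2 minus scan day 1 with SQ1 was 0.27 for Eef1e1 (0.12 on scan day 1, 0.39 on scan day 2), 0.38 for Eif1ax (0.16 and 0.53) and 0.30 for Eif3b (-0.09 and 0.21). It was 0.21 for Eif2b4 (-0.11 and 0.10) and 0.20 for Eif2b5 (0.03 and 0.22). It was -0.38 for Eif4ebp3 (-1.77 and -2.15), -0.19 for Eif2ak4 (0.83 and 0.65) and -0.17 for Eif2ak1 (-0.16 and -0.32). With pravastatin it was 0.25 for Eef1e1 (0.04 and 0.29) and -0.25 for Eif2ak1 (-0.03 and -0.28). Eif3b and Eif2b4 had opposite signs on the scan days, and the other members named here kept theirs. Scan day coincides with slide and with the control numbers in the file names, which cannot be told apart.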

How the results depend on the processing

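Each result was recomputed under 30 alternatives. Of the members called, 14 of 38 with SQ1, 6 of 24 with pravastatin and 3 of 10 between the drugs kept their call under all of them. Counts that moved by more than 1.5 times were as follows, and their cause was not tested. With arrays scaled to 1 spread, 19 members were called with SQ1 (33.9%, beside 43.6% of all genes) and 4 between the drugs (7.14%, beside 18.2%), with a median of 0.0098 between them against 0.05. Between the drugs the count was 24 and 25 with the random and fixed replicate block, 16 with scan day as a term, 4 within scan day 1 and 16 within scan day 2, and with pravastatin it was 8 within scan day 1; those within a day rest on fewer arrays. The members' median with median centring was 0.21 with SQ1, 0.10 with pravastatin and 0.13 between the drugs, and within scan day 1 it was 0.050 with SQ1 and 0.020 with pravastatin. Leaving out 1 array at a time gave 34 to 38 called with SQ1 (median 0.10 to 0.12), 18 to 25 with pravastatin (0.04 to 0.07) and 8 to 14 between the drugs (0.04 to 0.07). Estimates changed sign for Eif2b2 (0.059) and Eif4a2 (0.0091) with SQ1 under median centring, for Eif4a1 (-0.047) with SQ1 as the mean of its probes, and for Eif2d between the drugs with arrays scaled to 1 spread (-0.040). The replicate block moved neither drug's count against untreated cells by over 1.5 times (37 and 41 with SQ1, 23 and 31 with pravastatin). Leaving out an array cost at least 1 call for 6 members with SQ1, 8 with pravastatin and 2 between the drugs. Signal over background set few limits: 55 of 56 members were above it in all 32 channels.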
